A study of Rattus norvegicus with 8 samples.

Results

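Chemokines, cytokines and their receptors were examined in normal rat left atrium and left ventricle as a set of 37 genes, 25 ligands and 12 receptors, chosen by gene symbol. Probe sets carrying the symbol were found for 36 of the 37 genes (25 ligands and 11 receptors), 53 probe sets in all, out of 14217 named genes and 31042 probe sets on the array. The oncostatin M receptor Osmr was not analysed here. Where a gene had more than 1 probe set, as 10 genes did, the one with the highest mean over the 8 arrays stood for the gene.

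The atrial group was the left atrial appendage and the ventricular group the left ventricular free wall of 13 normal, untreated male Sprague-Dawley rats of 225 to 275 g. Each tissue was pooled over animals into 4 pools, and the RNA of each pool was hybridized to 1 Affymetrix rat genome array, so SDs and p-values reflect the variation among pools and not among single animals. That the tissue came from the left side is stated in the methods and not in the deposited labels, and the animals that went into each pool are not stated. Values are log2 signal intensities, in which a difference of 1 is a doubling, and each transcript is read by a probe set, several short oligonucleotides complementary to it.

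Chemokines are small secreted proteins that guide leukocytes along a concentration gradient. They are grouped by the spacing of their first cysteines into the CXC, CC and CX3C families, and they act through G protein-coupled receptors on the leukocyte surface. Cytokines include the interleukins, tumor necrosis factor and the colony-stimulating factors, and many of their receptors, though not all, signal by way of Janus kinases or NF-κB. In the healthy heart, resident macrophages, endothelial cells and fibroblasts make many of these proteins, and some, such as CXCL12, also take part in the formation of vessels.

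Every difference below is the atrial mean minus the ventricular mean of log2 values. A gene was called when its adjusted p was under 0.05 in limma, which fits a linear model to each probe set and steadies its variance with that of the others. The p-values were adjusted by Benjamini-Hochberg over all 31042 probe sets. Of these probe sets 38.8% were called in either direction. The stricter study thresholds were an adjusted p under 0.0001 with a fold of at least 1.8. A mean under 4 on the log2 scale lay near the low end of the intensities. A difference was taken as a lower bound where only the lower mean was under 4, and its size was not set where both were. Levels of different genes were not compared, since probe sets differ in their response.

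Defining markers matched the tissue labels. All 4 atrial cardiomyocyte genes (Nppa, Myl7, Sln and Myl4) were higher in the atria and all 6 ventricular cardiomyocyte genes were lower. Atrial pools 1 and 4 stood apart in the ventricular genes, whose mean level was 7.47, 5.79, 6.26 and 7.90 in atrial pools 1 to 4, against 10.94 to 11.04 in the ventricles. The ventricular myosin light chain Myl2 had 10.48, 4.32, 6.82 and 11.30 in the same atrial pools. The value without atrial pools 1 and 4 is given wherever leaving them out changed a call. In whole tissue, fewer cells of a type and less RNA per cell cannot be told apart.

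Of the 36 genes measured, 4 were called higher in the atria and 15 lower, and 17 were not called. Among all genes, 22.5% were called higher and 22.5% lower. The genes higher in the atria were the cytokine Il33, the chemokine Ccl7 and the receptors Ccr1 and Lifr. Those lower in the atria were the CXC chemokines Cxcl1, Cxcl9, Cxcl10, Cxcl11 and Cxcl12, the CX3C chemokine Cx3cl1, the CC chemokines Ccl4, Ccl5 and Ccl19, the cytokines Il15, Tnf and Csf1, and the receptors Cxcr3, Cxcr4 and Ccr2. The median difference of the 36 genes was -0.22, beside -0.04 over all genes.

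At the study thresholds 1 gene, Il33, was higher in the atria, where 3.37% of all genes passed. Cxcl11, Cxcl12, Cxcr4 and Ccl5 were lower, where 2.53% of all genes passed. The methods set these thresholds for the SAM statistic, with which 5 genes were lower, Cxcl9 (-1.36) in addition, and 1 was higher. The atrial pools all lay above the ventricular pools in 4 genes (22.2% of all genes), the ventricular pools all lay above the atrial pools in 14 (21.9% of all genes), and the groups overlapped in 18.

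Many of these genes were dim. In 9 of the 36 both tissue means were under 4, and in 5 only the lower one was. Among the 27 with a tissue mean of at least 4, 4 were higher and 13 lower, beside 28.2% and 25.2% of all genes of that kind. By role, 2 ligands were higher (8%), 12 lower (48%) and 11 not called, and 2 receptors were higher (18.2%), 3 lower (27.3%) and 6 not called. Over all genes, dim ones included, 22.5% were called in each direction.

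**Figure D1:**
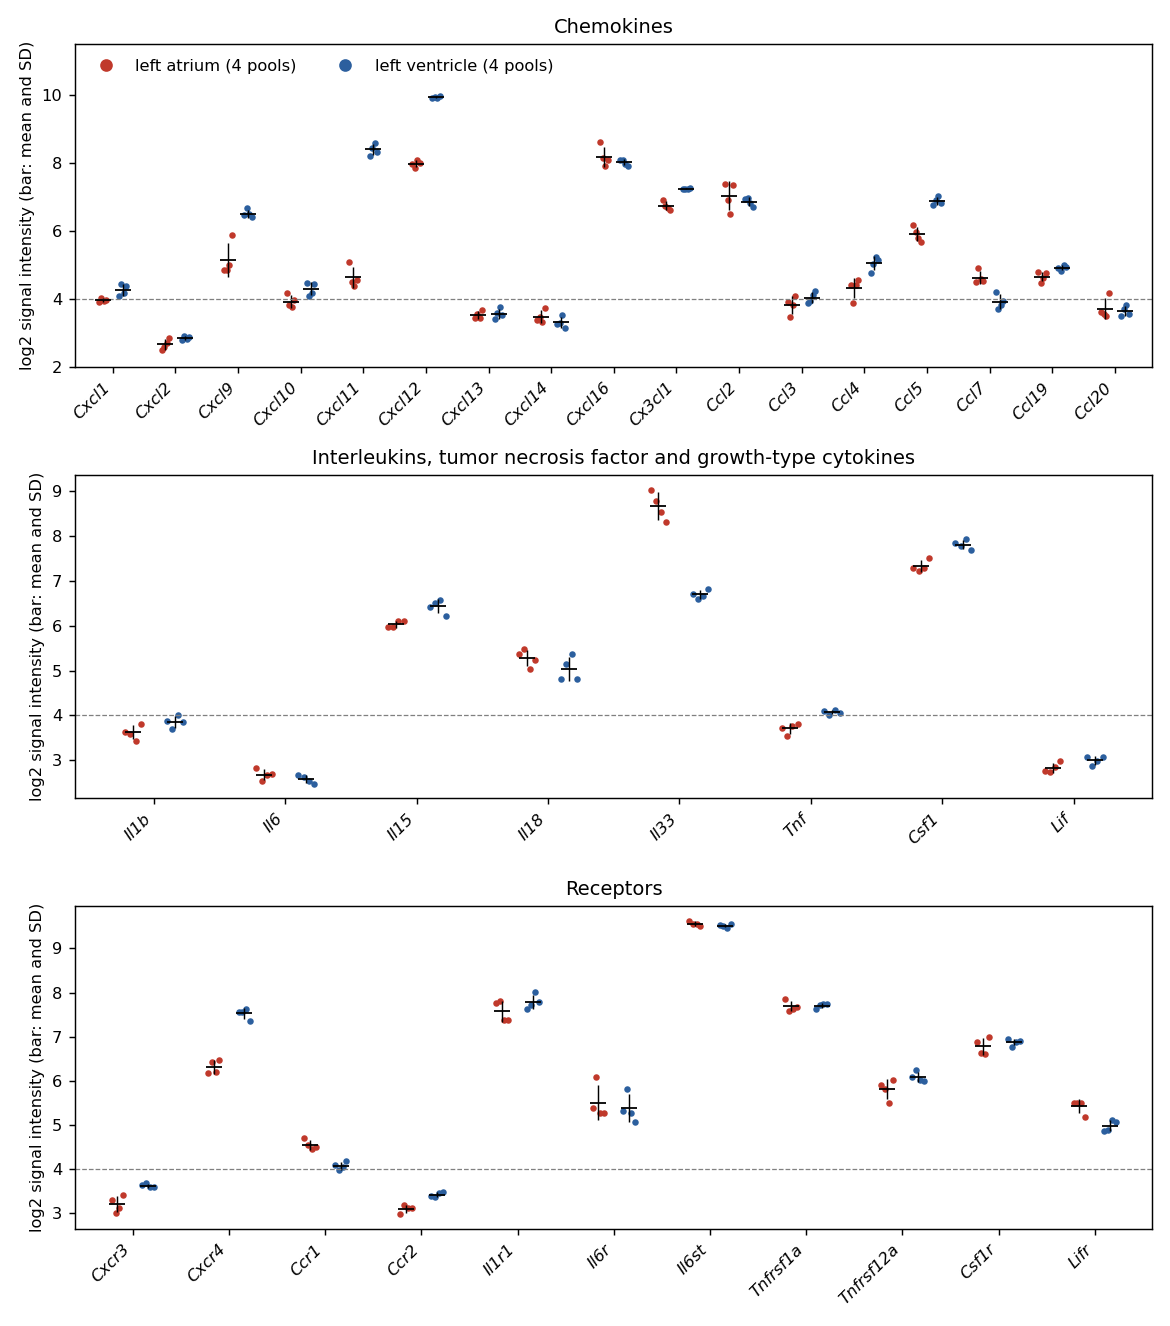
Log2 signal intensity of the 36 genes in each pool, with atrial pools in red and ventricular pools in blue, black marks for the mean and SD of 4 pools, and a dashed line at the low end of 4. The widest gaps between the tissues are those of Cxcl11 (4.64 in the atria, 8.40 in the ventricles), Il33 (8.66 and 6.70) and Cxcl12 (7.99 and 9.94).

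The chemokine ligands of the receptor CXCR3, which is carried by activated T cells and natural killer cells, held the widest difference of the set. Cxcl11, known as an interferon-inducible attractant of these cells, read 5.09, 4.51, 4.40 and 4.56 in atrial pools 1 to 4 and 8.21, 8.45, 8.61 and 8.34 in ventricular pools 1 to 4. Every ventricular pool was far above every atrial pool, and atrial pool 1 was the highest of the atria. Cxcl11 fell by 3.76 on the log2 scale in the atria (standard error 0.14, adjusted p = 2.1e-08 from limma), 13.6 fold lower than in the ventricles. Without atrial pools 1 and 4 the difference was -3.95.

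Cxcl9, a second interferon-inducible ligand, had 4.86, 4.86, 5.0 and 5.89 in atrial pools 1 to 4 and 6.47, 6.68, 6.49 and 6.40 in the ventricular pools at its brighter probe set. Atrial pool 4 stood above the other atrial pools but below all of the ventricles. The difference was -1.36 (standard error 0.20, adjusted p = 3.3e-04 from limma), and -1.60 without atrial pool 4. The second probe set showed the same raised pool, at 3.90, 3.91, 3.97 and 4.76 in the atria against 5.58, 5.59, 5.43 and 5.63 in the ventricles, and differed by -1.42 (adjusted p = 7.5e-05). The mean level of 5 adipocyte markers was also highest in atrial pool 4, at 7.53 against 4.79 to 6.22 in the other atrial pools and 3.62 to 3.83 in the ventricles. The mean level of the ventricular cardiomyocyte genes, given above, was highest of the atria in pool 4 as well. The part of either in the Cxcl9 value was not tested.

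Cxcl10, the remaining ligand of this receptor, was near the low end in the atria. Its atrial pools read 4.17, 3.82, 3.77 and 3.96 and its ventricular pools 4.48, 4.11, 4.18 and 4.44, with some overlap. The difference was -0.37, a lower bound in size (standard error 0.11, adjusted p = 0.022 from limma). The call was lost without atrial pool 2 (adjusted p = 0.0615), atrial pool 3 (0.0651), ventricular pool 1 (0.0645) or ventricular pool 4 (0.061), and kept without the other pools. Cxcr3 itself was near the low end in both tissues, at 3.29, 3.00, 3.11 and 3.39 in the atria and 3.63, 3.67, 3.58 and 3.58 in the ventricles (adjusted p = 0.0031 from limma), so the size of its difference of -0.42 was not set.

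**Figure D2:**
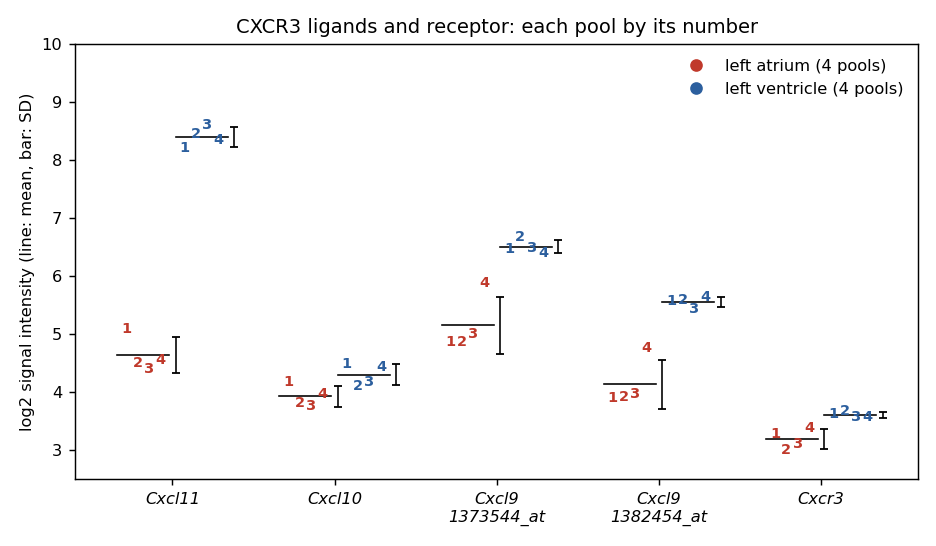
Log2 signal intensity of the CXCR3 ligands and of Cxcr3, each digit the value of the pool with that number (atria red and left, ventricles blue and right), lines for means and bars for SDs of 4 pools. The atrial and ventricular means of Cxcl11 are 4.64 and 8.40, those of Cxcl10 3.93 and 4.31, and atrial pool 4 lies apart at both Cxcl9 probe sets.

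Cxcl11, Cxcl10 and Cxcl9 follow each other on chromosome 14 in the RefSeq gene order of rat build GRCr8. Their measured differences were -3.76, -0.37 and -1.36, and since that of Cxcl10 is a lower bound in size, how far it lies from those of its neighbours was not set. The 300 bases around each start, 250 before it and 50 after, are printed because these 3 neighbours were all called lower and include the widest difference of the set. They are RefSeq sequence of build GRCr8, with matches to the NF-κB letters, GGGA and TTCC with any 2 bases between, on either strand in capitals.
Cxcl11 chr14:15973478-15973777 (+): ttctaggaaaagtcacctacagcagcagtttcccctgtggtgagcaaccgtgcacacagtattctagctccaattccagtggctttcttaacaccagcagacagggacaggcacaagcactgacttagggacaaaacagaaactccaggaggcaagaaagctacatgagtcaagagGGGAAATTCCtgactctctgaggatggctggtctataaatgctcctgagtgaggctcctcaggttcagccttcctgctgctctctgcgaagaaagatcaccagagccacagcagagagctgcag
Cxcl10 chr14:15988816-15989115 (+): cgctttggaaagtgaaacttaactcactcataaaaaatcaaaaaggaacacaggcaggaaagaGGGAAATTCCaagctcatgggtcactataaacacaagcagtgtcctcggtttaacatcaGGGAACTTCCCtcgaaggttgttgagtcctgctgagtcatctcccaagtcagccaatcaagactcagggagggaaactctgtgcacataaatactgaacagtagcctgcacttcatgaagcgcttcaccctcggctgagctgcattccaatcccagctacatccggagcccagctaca
Cxcl9 chr14:16006916-16007215 (+): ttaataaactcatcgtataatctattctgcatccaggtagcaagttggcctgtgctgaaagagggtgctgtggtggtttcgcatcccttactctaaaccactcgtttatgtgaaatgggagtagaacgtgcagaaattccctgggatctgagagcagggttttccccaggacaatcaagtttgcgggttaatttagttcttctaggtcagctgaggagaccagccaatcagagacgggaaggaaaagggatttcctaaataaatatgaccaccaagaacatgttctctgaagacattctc
The Cxcl11 window held 1 match, 74 to 65 bases before the start. The Cxcl10 window held 1 match 187 to 178 bases before the start and 2 overlapping matches between 128 and 118 bases before it. No match of these letters lay in the Cxcl9 window. The letters of the interferon-stimulated response element, GAAA and GAAA with any 2 bases between, were matched in the Cxcl10 window, 243 to 234 bases before the start, and in neither of its neighbours.

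Across the set 31 genes had a promoter window, and 5 of them (Cxcl1, Cxcl10, Cxcl11, Ccl7 and Il6), or 16.1%, held the NF-κB letters, which 1.3% of all 33469 windows held. One of the 5, Ccl7, was higher in the atria, 3 were lower and Il6 was not called. The interferon letters were found in Ccl19, Cxcl10 and Il6st (9.68%, beside 3.92% of all windows), and the letters TTCCNGGAA, bound by STAT dimers, in 0 of 31 (1.27% of all windows). TATAAA was matched in 9 genes (29%, beside 14.2%). A match of letters is a description of the window and not a site shown to be bound.

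Genes that respond to interferon were lower in the atria, as were Cxcl9 and Cxcl11. Of 20 measured genes of an interferon response list, 18 were lower in the atria, beside 22.5% of all genes, and 2 were not called. The median difference of the list was -0.53. The list was not specific to interferon gamma, and which interferon acts on these genes was not tested. The antiviral genes Isg15 and Rsad2 differed by -1.25 and -1.15, and the transcription factor Irf1 by -0.65. The mean level of the list was 5.74 to 6.14 in the atria and 6.40 to 6.72 in the ventricles. Atrial pool 4, the highest of the atria in Cxcl9, was the highest of the atria in 1 of the 20 genes. Its list mean was the lowest of the atria (5.74). Among the atria the list mean was highest in pool 1 (6.14), where Cxcl11 was also highest (5.09). In the ventricles the list mean was highest in pool 1 (6.72), where Cxcl11 was lowest (8.21). It was lowest in pool 3 (6.40), where Cxcl11 was highest (8.61). The part of an interferon response in the chemokine values was not tested. Ifng, the gene of interferon gamma, was near the low end in both tissues. Its mean was 2.42 in atrial and 2.57 in ventricular tissue (adjusted p = 0.091 from limma).

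Cxcl12, a chemokine of vascular and stromal cells that retains and attracts cells carrying CXCR4, was lower in the atria at all 3 of its probe sets. At its brightest probe set the atrial pools read 7.98, 7.86, 8.09 and 8.01 and the ventricular pools 9.92, 9.94, 9.91 and 9.98. The ventricular pools were almost equal, and none overlapped with the atria. Cxcl12 was 3.87 fold lower in the atria (difference -1.95, standard error 0.06, adjusted p = 9.1e-09 from limma). The other probe sets gave smaller differences, -0.81 (adjusted p = 1.6e-04) and -0.37 (adjusted p = 0.0015), both with the ventricles above the atria. The 3 probe sets thus gave 1 direction and unequal sizes. The window around its start, printed because the gene passed the study thresholds, held no match of the letters searched.
Cxcl12 chr4:152060531-152060830 (+): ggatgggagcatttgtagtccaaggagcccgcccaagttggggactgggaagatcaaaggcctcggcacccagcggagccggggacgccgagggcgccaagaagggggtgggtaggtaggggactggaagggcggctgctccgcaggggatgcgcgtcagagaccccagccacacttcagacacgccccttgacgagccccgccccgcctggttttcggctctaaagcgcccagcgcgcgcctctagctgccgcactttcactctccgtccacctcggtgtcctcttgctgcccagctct

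The remaining CXC chemokines were low or did not differ by the test. Cxcl1, a neutrophil attractant, was lower in the atria, at 3.93, 4.04, 3.94 and 3.98 there and 4.08, 4.44, 4.19 and 4.38 in the ventricles (difference -0.30, a lower bound in size, adjusted p = 0.016 from limma). Cxcl1 lost the call with cyclic loess (adjusted p = 0.085 from limma) and quantile normalization (0.051). Without atrial pools 1 and 4 it was also lost (difference -0.28, adjusted p = 0.068). Cxcl2, its relative, averaged 2.67 ± 0.15 in atrial and 2.87 ± 0.05 in ventricular tissue (SD, n = 4 pools, adjusted p = 0.075). The B cell attractant Cxcl13 (3.53 and 3.58, adjusted p = 0.71) and Cxcl14 (3.49 and 3.32, adjusted p = 0.23) were under 4 in both tissues. Cxcl16, a membrane-bound chemokine and scavenger receptor, was well measured, at 8.61, 8.15, 7.92 and 8.09 in the atria and 8.10, 8.11, 7.97 and 7.92 in the ventricles. Atrial pool 1 was the high one, and the difference of 0.17 (95% confidence interval -0.12 to 0.45, adjusted p = 0.33) was not called. Without atrial pools 1 and 4 it was 0.0069.

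Cx3cl1 (fractalkine), a membrane-tethered chemokine of endothelial cells, read 6.93, 6.75, 6.69 and 6.62 in the atria and 7.25, 7.23, 7.24 and 7.27 in the ventricles. The ventricular pools were nearly equal and above all atrial pools (difference -0.50, standard error 0.07, adjusted p = 3.0e-04 from limma). Of 11 measured markers of endothelium, 8 were also lower in the atria and 1 (Vwf) was higher, beside 22.5% of all genes each way. Their mean level was 8.22 to 8.33 in the atria and 8.77 to 8.93 in the ventricles. Between the tissues, that mean and Cx3cl1 were thus both lower in the atria. Within the atria the endothelial mean rose slightly from pool 1 to 4 (8.22, 8.25, 8.27 and 8.33) while Cx3cl1 fell. All 10 pericyte and smooth muscle markers were also lower in the atria, with means of 7.14 to 7.25 there and 7.99 to 8.02 in the ventricles. The part of either list in the values of Cx3cl1 and Cxcl12 was not tested.

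Of the 7 CC chemokines, 1 was higher in the atria, 3 were lower and 3 were not called, beside 22.5% of all genes called in each direction. Ccl5 (RANTES), released by T cells and other leukocytes, had the widest difference. It read 6.19, 5.97, 5.81 and 5.69 in the atria and 6.77, 6.93, 7.04 and 6.82 in the ventricles, with no overlap. The difference was -0.98 (standard error 0.11, adjusted p = 4.3e-05 from limma), or 1.97 fold lower in the atria.

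Ccl4 and Ccl3, which encode the macrophage inflammatory proteins MIP-1β and MIP-1α, lie next to each other on chromosome 10. Ccl4 read 4.43, 3.89, 4.43 and 4.56 in the atria against 4.78, 5.04, 5.25 and 5.16 in the ventricles (difference -0.73, adjusted p = 0.0025 from limma). Ccl3 was dimmer and overlapped, at 3.91, 3.47, 3.82 and 4.10 in the atria and 3.89, 3.94, 4.11 and 4.24 in the ventricles (difference -0.22, adjusted p = 0.19). Without atrial pools 1 and 4, Ccl3 was called lower (-0.40, adjusted p = 0.032 from limma), and without atrial pool 2 its difference was -0.10. Atrial pool 2 was the lowest of all pools in both. As the atrial mean of Ccl3 was under 4, the sizes of these differences were not compared.

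Ccl7 (MCP-3) and Ccl2 (MCP-1), which attract monocytes through CCR2 and related receptors, are also neighbours on chromosome 10. Ccl7 was the 1 chemokine higher in the atria, at 4.50, 4.93, 4.59 and 4.52 there and 4.22, 3.70, 3.82 and 3.93 in the ventricles. All atrial pools were above all ventricular pools. The difference was 0.72, a lower bound in size as the ventricular mean was under 4 (standard error 0.12, adjusted p = 0.0010 from limma). Ccl2 spread widely among the atria, at 7.39, 6.93, 6.51 and 7.36, with 6.95, 6.99, 6.82 and 6.71 in the ventricles (difference 0.18, adjusted p = 0.44). Atrial pools 1 and 4 were the high ones, above every ventricular pool. Without them the Ccl2 difference was -0.15 (adjusted p = 0.37 from limma) and that of Ccl7 0.84. The Ccl7 window is printed as that of the 1 chemokine with the opposite direction, with its NF-κB match, 59 to 50 bases before the start, in capitals.
Ccl7 chr10:67513845-67514144 (+): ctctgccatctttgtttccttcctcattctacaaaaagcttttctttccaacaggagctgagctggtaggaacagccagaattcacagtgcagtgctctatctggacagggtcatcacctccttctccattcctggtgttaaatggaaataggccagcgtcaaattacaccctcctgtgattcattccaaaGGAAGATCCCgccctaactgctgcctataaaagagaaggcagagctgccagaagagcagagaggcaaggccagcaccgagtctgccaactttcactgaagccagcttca

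Ccl19, which guides T cells and dendritic cells through CCR7, read 4.79, 4.48, 4.62 and 4.76 in the atria and 4.92, 4.82, 5.01 and 4.95 in the ventricles. The difference was small (-0.26, adjusted p = 0.024 from limma). Its call was lost without atrial pool 2 (adjusted p = 0.063) or 3 (0.061), or without ventricular pool 1 (0.052), 3 (0.068) or 4 (0.055). Ccl20 was under 4 in 7 of the 8 pools and at 4.19 in atrial pool 4 (difference 0.07, adjusted p = 0.72).

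Markers of T and NK cells and those shared by all leukocytes were mostly lower in the atria, as were several chemokines. Of 14 T and NK cell markers 10 were lower in the atria and 4 were not called, with a mean level of 3.42 to 3.54 in the atria and 3.81 to 3.85 in the ventricles. Both tissue means were under 4 for 9 of the 14, the T cell receptor genes Cd3d, Cd3e and Cd3g among them. Of 7 markers shared by all leukocytes 6 were lower in the atria and 1 was not called. Their median difference was -0.46, and the widest negative one was that of Ptprc (CD45, -0.78). Over all genes 22.5% were called in each direction. The 16 macrophage and monocyte markers were divided, with 6 higher in the atria, 3 lower and 7 not called. Their differences ran from -0.41 to 0.60, with a median of 0.11. Their part in the chemokine differences was not tested.

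**Figure D3:**
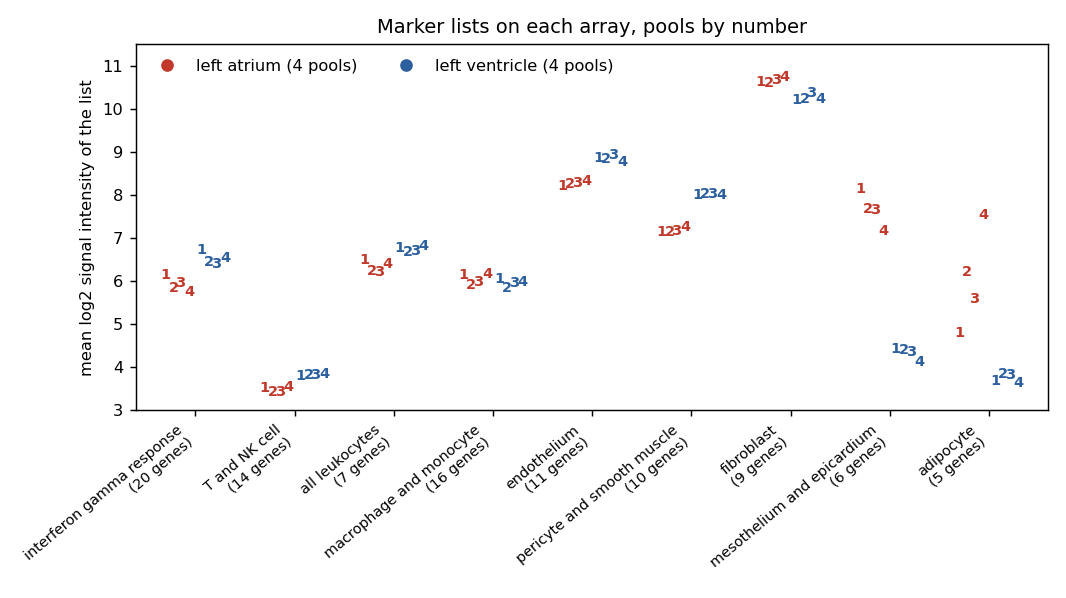
Mean log2 signal intensity of marker lists on each array, each digit the pool with that number, atria in red to the left and ventricles in blue to the right. T and NK cell, leukocyte, endothelial, pericyte and interferon response lists lay lower in every atrial pool than in any ventricular pool, the mesothelium and epicardium list lay higher (7.17 to 8.12 in the atria and 4.12 to 4.42 in the ventricles), and the macrophage list overlapped.

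Of the 8 interleukins and other cytokines, 1 was higher in the atria (12.5%), 3 were lower (37.5%) and 4 were not called. Over all genes 22.5% were called in each direction. Il33, an alarmin of the interleukin 1 family that is stored in the nuclei of stromal, endothelial and epithelial cells and released on damage, had the widest positive difference of the set. At its brighter probe set it read 9.03, 8.78, 8.53 and 8.30 in atrial pools 1 to 4 and 6.71, 6.59, 6.67 and 6.82 in the ventricles. The lowest atrial pool was well above the highest ventricular pool. Il33 was 3.89 fold higher in the atria (difference 1.96, standard error 0.13, adjusted p = 1.4e-06 from limma), and a second probe set gave 1.85 (adjusted p = 7.0e-06) from atrial values of 7.75, 7.26, 7.22 and 6.82 and ventricular values of 5.30, 5.56, 5.46 and 5.33. Without atrial pools 1 and 4 the difference was also 1.96.

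Markers of mesothelium and epicardium, the cell layer on the outside of the heart, were higher in the atria in 5 of 6 cases, with a mean level of 7.17 to 8.12 in the atria and 4.12 to 4.42 in the ventricles. Of 9 fibroblast markers 8 were higher in the atria. Among all genes 22.5% were called higher. The part of either marker list in the Il33 difference was not tested. Il1rl1 (ST2), the receptor of IL-33, was near the low end in both tissues (atria 3.79, ventricles 3.90, adjusted p = 0.30 from limma), as was its partner Il1rap (3.94 and 3.97, adjusted p = 0.83).

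Csf1, the growth factor of macrophages, was lower in the atria at 7.28, 7.22, 7.28 and 7.52, against 7.83, 7.78, 7.92 and 7.69 in the ventricles. The difference was -0.48 (standard error 0.08, adjusted p = 8.1e-04 from limma). Of its other 3 probe sets 2 were also called lower (-0.33 and -0.37), and 1 was not called (-0.13, adjusted p = 0.26). Il34, the second ligand of the same receptor, was lower as well, at 5.04 ± 0.04 in the atria and 5.67 ± 0.07 in the ventricles (SD, n = 4 pools, adjusted p = 1.4e-05).

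Il15, which sustains NK cells and memory T cells, read 5.96, 5.97, 6.10 and 6.10 in the atria and 6.42, 6.51, 6.57 and 6.22 in the ventricles (difference -0.40, adjusted p = 0.0031 from limma). Tnf (tumor necrosis factor) was dim, at 3.72, 3.55, 3.76 and 3.81 in the atria and 4.10, 4.01, 4.11 and 4.05 in the ventricles. The groups did not overlap, and its difference was -0.36, a lower bound in size (adjusted p = 0.0021). The inflammatory cytokines Il1b (atria 3.62, ventricles 3.86, adjusted p = 0.064), Il6 (2.68 and 2.58, adjusted p = 0.29) and Lif (2.84 and 3.00, adjusted p = 0.11) were under 4 in both tissues. Il1b was called lower without atrial pools 1 and 4 (-0.35, adjusted p = 0.021 from limma). Il18, activated by the inflammasome, was measured at 5.37, 5.48, 5.04 and 5.23 in the atria and 4.81, 5.15, 5.37 and 4.82 in the ventricles. These pools overlapped, and the difference of 0.24 (95% confidence interval -0.06 to 0.54) was not called (adjusted p = 0.18).

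All 4 chemokine receptors were called, 1 of them higher in the atria and 3 lower, beside 22.5% of all genes in each direction. In 2 of the 3 lower ones, Cxcr3 and Ccr2, both tissue means were under 4. Cxcr4, the receptor of CXCL12, read 6.17, 6.42, 6.19 and 6.47 in the atria and 7.56, 7.56, 7.63 and 7.35 in the ventricles at its brightest probe set. The tissues were clearly apart, by -1.21 (standard error 0.09, adjusted p = 2.4e-06 from limma) or 2.32 fold. Its other probe sets gave -1.40 and -1.58. Cxcr4 and its ligand Cxcl12 were thus both lower in the atria at every probe set that reads them.

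Ccr1, a receptor of CCL3, CCL5 and CCL7 on monocytes and neutrophils, was higher in the atria, at 4.69, 4.53, 4.44 and 4.50 there and 4.09, 3.96, 4.04 and 4.16 in the ventricles (difference 0.48, adjusted p = 4.5e-04 from limma). Ccr2, the main receptor of CCL2 and CCL7, was near the low end, at 2.96, 3.17, 3.11 and 3.11 in the atria and 3.37, 3.35, 3.44 and 3.47 in the ventricles. It was called lower (-0.32, adjusted p = 0.0030) with its size not set. The receptors of these chemokines therefore did not share 1 direction.

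Of the 7 measured cytokine receptors 1 was higher in the atria (14.3%, beside 22.5% of all genes) and 6 were not called. Lifr, which binds leukemia inhibitory factor and pairs with gp130, read 5.49, 5.50, 5.50 and 5.18 in the atria and 4.85, 4.88, 5.10 and 5.07 in the ventricles. Atrial pool 4 was the low one and yet above all ventricular pools, and the difference was 0.44 (standard error 0.09, adjusted p = 0.0030 from limma), with 0.49 at the other probe set.

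Il6st (gp130), the signal-transducing subunit shared by receptors of the interleukin 6 family, was even across the tissues at its brightest probe set, with 9.63, 9.56, 9.55 and 9.51 in the atria and 9.54, 9.50, 9.47 and 9.55 in the ventricles. The difference of 0.05 had a 95% confidence interval of -0.08 to 0.17 (adjusted p = 0.55 from limma). A dimmer probe set of the same gene was called higher, at 8.31, 8.11, 8.14 and 8.14 in the atria and 7.80, 7.68, 7.87 and 7.78 in the ventricles (0.39, adjusted p = 0.0012), so the probe sets of Il6st disagreed. Il6r, the subunit that binds interleukin 6, spread widely in both tissues, at 5.39, 6.08, 5.26 and 5.27 in the atria and 5.32, 5.81, 5.27 and 5.07 in the ventricles. Pool 2 was the highest in each (difference 0.13, adjusted p = 0.63).

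Among the other receptors, Tnfrsf1a, the main receptor of tumor necrosis factor, averaged 7.68 ± 0.11 in atrial and 7.70 ± 0.05 in ventricular tissue (SD, n = 4 pools), a difference of -0.02 with a 95% confidence interval of -0.18 to 0.13. Csf1r, the receptor of Csf1 and a marker of macrophages, read 6.78 ± 0.19 and 6.87 ± 0.07 in the same order (-0.09, adjusted p = 0.46 from limma), but was called lower without atrial pools 1 and 4 (-0.25, adjusted p = 0.027). Il1r1, which binds interleukin 1, averaged 7.58 ± 0.24 in atrial and 7.79 ± 0.17 in ventricular pools (-0.21, adjusted p = 0.20), and none of its 3 probe sets was called. Tnfrsf12a (Fn14), the receptor of TWEAK, read 5.81 ± 0.22 and 6.08 ± 0.11 (-0.27, adjusted p = 0.067), and was called lower without atrial pools 1 and 4 (-0.43, adjusted p = 0.012). Its ligand Tnfsf12 was at 7.33 in atrial and 7.51 in ventricular tissue (adjusted p = 0.087).

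**Figure D4:**
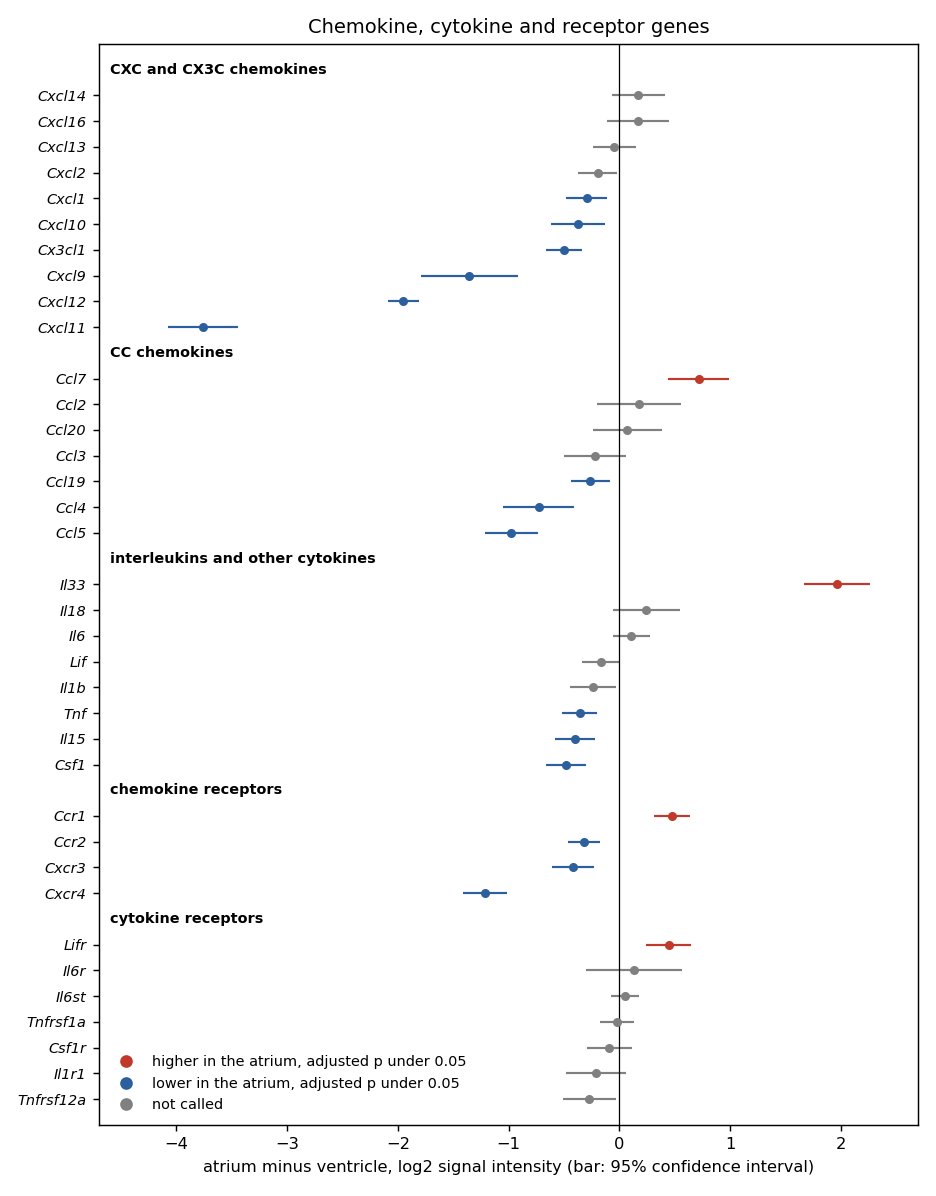
Difference of each gene between left atrium and left ventricle (log2 signal intensity, atrium minus ventricle) with its 95% confidence interval from limma, in 5 groups by role. Cxcl11 lies farthest to the left at -3.76 and Il33 farthest to the right at 1.96, and 6 of the 7 cytokine receptors are grey, that is not called.

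The 10 genes with more than 1 probe set allowed a comparison within genes. All probe sets of Cxcl9, Cxcl12, Cxcr4, Tnf, Lifr and Il33 were called, each gene in 1 direction. Those of Csf1 and Il6st were called in part, and those of Il1r1 and Cxcl14 were not called. Of the 53 probe sets together, 7 were higher in the atria, 23 lower and 23 not called.

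**Figure D5:**
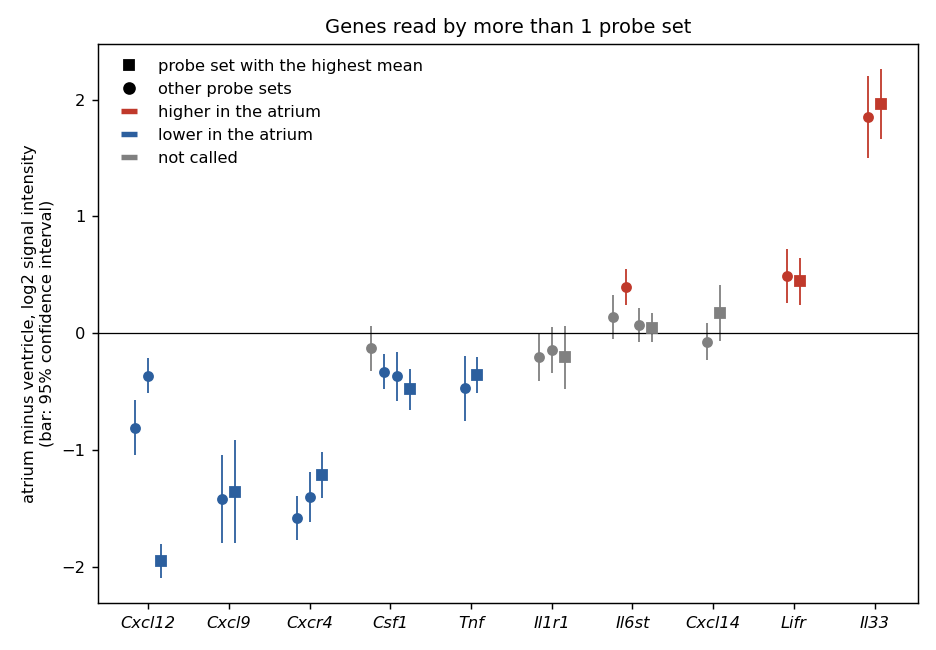
Difference between left atrium and left ventricle (log2 signal intensity) at each probe set of the 10 genes with more than 1, squares for the probe set with the highest mean, circles for the others and bars for 95% confidence intervals. Cxcl12 runs between -1.95 and -0.37, while the Il33 probe sets lie at 1.96 and 1.85.

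The rest of the pathway was followed through 152 other chemokines, cytokines, receptors and signal transducers, 129 of them measured. In the atria 18 were called higher and 28 lower, and 83 were not called, with a median difference of -0.09. These were 14% and 21.7% of the list, beside 22.5% of all genes in each direction. Of 14 other chemokines 2 were higher and 3 lower, of 13 other chemokine receptors 4 and 2, of 31 other cytokines 3 and 9, of 38 other cytokine receptors 5 and 9, and of 33 signal transducers 4 and 5.

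Of the 4 measured receptors that take up chemokines without signaling through G proteins, 3 were higher in the atria, beside 22.5% of all genes. They were not a list of their own but a part of the 13 other chemokine receptors, of which 4 were higher. Ackr3, which binds CXCL12 and CXCL11, read 9.58, 9.58, 9.58 and 9.36 in the atria and 9.03, 9.0, 9.14 and 9.17 in the ventricles (0.44, adjusted p = 8.6e-04 from limma). Ackr4, which takes up CCL19 and CCL21, read 7.72, 7.16, 7.29 and 7.16 against 5.68, 5.46, 5.72 and 5.47 in the ventricles (difference 1.75, adjusted p = 1.8e-06). Ackr1 was higher by 0.26 (adjusted p = 0.020), and Ackr2 was not called (-0.17, adjusted p = 0.13).

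The list also held other receptors and binding proteins of ligands of the set. Il2rg, the common γ chain that IL-15 shares with interleukin 2, had the widest negative difference of the 129 genes, at 6.98, 6.94, 6.94 and 7.23 in the atria and 8.82, 8.73, 8.79 and 8.70 in the ventricles (-1.74, adjusted p = 5.9e-08 from limma), while Il2rb, which IL-15 also uses, was not called (5.26 and 5.40, adjusted p = 0.32). Cxcr5, the receptor of CXCL13, was lower (difference -0.41, adjusted p = 0.0048). The fractalkine receptor Cx3cr1 was lower (atria 3.82, ventricles 4.12, adjusted p = 0.035), with a difference of -0.30 that is a lower bound in size. Il18bp, which neutralizes IL-18, was lower (difference -0.43, adjusted p = 9.9e-04). Cxcr1, Cxcr2, Ccr3, Ccr6, Il1r2 and Tnfrsf1b were under 4 in both tissues and not called.

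Ligands of other families were among the remaining wide differences. Kitlg (stem cell factor) was lower in the atria (difference -1.41, adjusted p = 3.6e-07 from limma), as were Tnfsf10 (TRAIL, -0.96, adjusted p = 6.4e-05) and Tnfaip3 (A20), an inhibitor of NF-κB signaling (-0.72). Cntf, a ligand of the gp130 family, was higher by 1.34 (adjusted p = 2.0e-05), with atrial values of 6.30, 6.30, 6.07 and 5.64 against 4.78, 4.63, 4.74 and 4.83 in the ventricles. Il17re and the skin-homing chemokine Ccl27 were also higher, by 1.12 (a lower bound in size) and by 1.02. A dimmer probe set of Il17re gave 0.68 (adjusted p = 3.4e-04 from limma), with its ventricular mean also under 4. Among the transducers of gp130 and other cytokine receptors, Jak2 was higher in the atria by 0.58 and Stat5b by 0.46, Stat4 was lower (difference -0.39, a lower bound in size), and Jak1 (0.06), Stat3 (-0.12) and the inhibitor Socs3 (0.04) were not called.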

How the data were processed

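RNA of 4 pools of left atrial and 4 pools of left ventricular tissue was measured on 8 Affymetrix arrays, 1 per pool, from 10 μg of total RNA. The authors summarized probe intensities by RMA, which adjusts for background and normalizes by quantiles, so the deposited values, 1 for each of 31042 probe sets, are log2 signal intensities (1.9 to 13.77, array medians of 4.8 or 4.81). They were used without further scaling. The RMA version is not given in the sources used here. Median SDs between pools were 0.117 in the atria and 0.0986 in the ventricles, and the number of arrays limits the precision.

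The tissues were compared at each probe set by limma 3.58.1 (R 4.3.3), atrium minus ventricle, with no covariate and Benjamini-Hochberg adjustment over all probe sets. The study thresholds equal an FDR of 0.01% and 0.848 on the log2 scale. The procedure was checked on simulated data. Platform annotation gave 1 symbol to 20826 probe sets, several to 436 and none to 9780. The 37 genes and all other lists were chosen with earlier results of these data known. Every one of the 37 was named. Of the other genes of the pathway, the 4 widest called differences in each direction with a tissue mean of at least 4 were named, with receptors and ligands of the set, and further pathway, interferon and marker genes were named as examples after their values were seen. Gene order and promoter windows came from RefSeq (GRCr8). Motif letters were searched on both strands.

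Pools with the same replicate number in the labels were not paired, as the correlations of their deviations ran between -0.188 and 0.155. By the pool numbers of the supplementary table of the study, in which atrial pools 3 and 4 are exchanged, they ran between 0.134 and 0.278, and a block by those numbers was an alternative. Alternatives were the SAM statistic named in the methods (70 permutations), other variance, scaling and filter settings, replicate blocks, other probe sets and pools left out.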

Additional observations from a re-analysis of the deposited data

Results flagged for a closer look

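In 106 groups of 4 pools at the 53 probe sets, 7 single pools lay far from the other 3 of their tissue by Dixon's criterion for 4 values, where chance gives about 1 in 20. Cxcl9 was at 5.89 in atrial pool 4, against 4.86 to 5.0 in the other atrial pools, and at 4.76 against 3.90 to 3.97 at its second probe set, which reads the same RNA. Ccl20 was at 4.19 in atrial pool 4, against 3.52 to 3.63. Il6r was at 6.08 in atrial pool 2, against 5.26 to 5.39. Lifr was at 5.18 in atrial pool 4, against 5.49 to 5.50, and its dimmer probe set was at 4.29 in ventricular pool 1, against 4.44 to 4.46 in the other ventricular pools. Tnfrsf1a was at 7.62 in ventricular pool 1, against 7.72 to 7.74.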

How the results depend on the processing

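Of the 19 called genes, 16 kept the call and direction at their main probe set in all 18 settings that changed the test, scaling, filter or pools, where the setting kept the gene. Across settings and other probe sets, 606 of 652 values stayed on their side of the threshold with their direction, 15 lost the call, 21 gained it and 10 changed sign. Ccl19 and Cxcl10 lost the call with cyclic loess (adjusted p of 0.058 and 0.071 from limma) and without single pools, and Cxcl1 with cyclic loess (0.085), quantile normalization (0.051) and without atrial pools 1 and 4 (0.068). Genes lower in the atria numbered 12 with cyclic loess and 19 with the SAM statistic. With the dimmest 40% of probe sets left out they numbered 10, as only 23 genes were kept. None of those 23 changed its call. The count at the study thresholds was 2 (Cxcl11 and Cxcl12) with a replicate block by the label numbers and 2 with a fold of at least 3, against 4, and 3 to 5 with 1 pool left out. The replicate block lost no call at an adjusted p under 0.05. With a block by the pool numbers of the supplementary table of the study the count at the study thresholds was 3, and at an adjusted p under 0.05 Il1b (0.025) and Tnfrsf12a (0.043) were called lower and Cxcl14 (0.048) higher. Uncalled differences that changed sign were Cxcl13 (0.042 with cyclic loess and 0.033 with quantile normalization, -0.10 to 0.016 with 1 pool left out), Il6st (-0.0052 with cyclic loess), Ccl20 (-0.12 without atrial pools 1 and 4, -0.086 to 0.14 with 1 pool left out), Ccl2 (-0.15 without atrial pools 1 and 4), Il6r (-0.063 to 0.28) and Tnfrsf1a (-0.076 to 0.010) with 1 pool left out, and Cxcl14 (-0.072 at its other probe set). Ccl2 was called higher without atrial pool 3 (0.36, adjusted p = 0.0486). Without atrial pools 1 and 4, Ccl3, Il1b, Tnfrsf12a and Csf1r were called lower. Without atrial pool 4, Cxcl2 (-0.26), Il1b (-0.31), Lif (-0.21) and Tnfrsf12a (-0.34) were called lower, as was Il1b without ventricular pool 2 (-0.29), and Il18 was called higher without ventricular pool 3 (0.36). The causes were not tested. With 38.2% of all values under 4, dim genes such as Il6, Lif, Cxcr3 and Ccr2 have no set size of difference.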
